A study of Mus musculus with 14 samples.

Results

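The 9 mouse genes of the contactin and calsyntenin families, Cntn1 to Cntn6 and Clstn1 to Clstn3, were followed in the olfactory epithelium of 14 mice at P5. They were taken by name from the 51211 gene symbols of 2 tables of normalized counts, and all 9 were present in each. Cntn4 and Clstn2 were picked out because they were lower in both experiments, so their own differences are given as a description with no test, and the 7 paralogs serve as the comparison. In the Kir2.1 experiment, 3 mice carrying Omp-IRES-tTA and tetO-Kir2.1-IRES-tauLacZ were set against 3 control mice heterozygous for Omp-IRES-tTA, which both groups share. The tTA allele sits at the Omp locus, so Kir2.1, an inward-rectifier potassium channel that quiets neurons, was driven in cells that express Omp. The records label these mice "Kir2.1-Off", although no doxycycline is stated for pups of this age. In the PEA experiment, 4 wild-type pups exposed to 2-phenylethylamine (PEA), an aversive odorant, from P0 to P5 were set against 4 unexposed pups. The records give C57BL/6 for all mice, whereas the methods name CD-1 for odor exposure. Each sample was the whole olfactory epithelium, and since it is bulk tissue, fewer cells of a type and less RNA per cell cannot be told apart.

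Contactins are cell-adhesion proteins of the immunoglobulin superfamily that are held to the axon surface by a lipid anchor, and they act with partners in the same or the facing membrane to steer axons and to organize myelinated fibres. Contactin-4, also named BIG-2, is known in olfactory sensory neurons as a guidance molecule whose amount differs from glomerulus to glomerulus. Calsyntenins are transmembrane proteins with cadherin repeats outside the cell and a binding site for kinesin light chain inside it, and they are known for carrying vesicles along axons, for retaining the amyloid precursor protein and for assembling synapses.

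Both picked genes are long. On GRCm38 (GENCODE vM21), Cntn4 (ENSMUSG00000064293) runs on the plus strand of chromosome 6 from 105677660 to 106699310, with Cntn6 and Cntn3 on the same chromosome, and Clstn2 (ENSMUSG00000032452) runs on the minus strand of chromosome 9 from 97444395 to 98033181. The promoter windows of these genes, 250 bases before to 50 bases after a RefSeq start site on GRCm38.p6, are shown because the genes were lower together in both experiments. Cntn4 had 2 windows that overlap, at chr6:106118515-106118814 and chr6:106118692-106118991, both on the plus strand and both inside the GENCODE gene rather than at its first base, and Clstn2 had 1 window at chr9:98033118-98033417 on the minus strand. Each is written 5′ to 3′ on the strand of the gene, and capitals mark a match to a searched motif.
Cntn4 window 1: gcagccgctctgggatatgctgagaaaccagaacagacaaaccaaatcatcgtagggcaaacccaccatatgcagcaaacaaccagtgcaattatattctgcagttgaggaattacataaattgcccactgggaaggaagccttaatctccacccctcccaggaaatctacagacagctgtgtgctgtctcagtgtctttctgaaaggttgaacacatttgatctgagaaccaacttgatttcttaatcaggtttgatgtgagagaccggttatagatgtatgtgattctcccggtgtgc
Cntn4 window 2: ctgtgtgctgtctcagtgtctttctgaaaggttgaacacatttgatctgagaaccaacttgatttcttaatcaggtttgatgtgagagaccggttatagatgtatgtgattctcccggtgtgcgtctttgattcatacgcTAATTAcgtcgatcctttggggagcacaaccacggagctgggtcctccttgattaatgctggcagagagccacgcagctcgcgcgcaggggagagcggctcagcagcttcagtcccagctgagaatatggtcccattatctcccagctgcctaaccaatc
Clstn2 window: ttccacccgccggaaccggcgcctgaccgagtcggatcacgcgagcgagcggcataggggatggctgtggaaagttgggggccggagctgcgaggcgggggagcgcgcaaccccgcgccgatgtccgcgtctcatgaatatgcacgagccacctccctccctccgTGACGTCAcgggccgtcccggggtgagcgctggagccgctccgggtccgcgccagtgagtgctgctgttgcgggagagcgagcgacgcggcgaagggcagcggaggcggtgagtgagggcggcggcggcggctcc

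Motifs searched on both strands were TGACGTCA, the cAMP response element, TAATTA, a core that homeodomain proteins bind, and the palindromic site of the olfactory Ebf factors. The cAMP response element stood in the Clstn2 window at bases -85 to -78 from the start site and in the first of the Clstn3 windows at -1 to 6, and 1.79% of 32851 RefSeq promoter windows held it. TAATTA stood in the second Cntn4 window at -110 to -105, as it did in 5.29% of all windows. The Ebf site, held by 0.904% of all windows, was found in no window of the 9 genes. The windows also differed in composition, with a GC content of 72.7% for Clstn2 against 45% and 50% for Cntn4 and a median of 52.7% over all windows. Cntn4 and Clstn2 had no searched motif in common, and a match is a description of the window and not a measured binding site.

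After normalization by the authors, which hides the read depth, summed values ran from 33049111 to 34198478 per mouse in the Kir2.1 table and from 11476120 to 12467331 in the PEA table. Kcnj2, which encodes Kir2.1, ranged from 986 to 1274 normalized counts in controls and from 17926 to 24193 in Kir2.1 mice, without overlap. Of 12 lists of cell type markers, 3 had summed levels that did not overlap between Kir2.1 and control mice. The 10 mature olfactory sensory neuron markers were lower (121231 to 135176 in Kir2.1 mice, 166690 to 183904 in controls), and macrophage and blood markers (12879 to 18893, 6988 to 12194) and muscle markers (151 to 167, 125 to 141) were higher. The sums follow the most abundant genes, and other lists had sums that overlapped while their members lay on one side. In Kir2.1 mice the 4 basal cell markers (median log2 difference 0.334) and the 4 tested microvillar cell markers (median 0.148) were all above control. The 5 vomeronasal sensory neuron markers were all below it (median -0.193). The 7 fibroblast, cartilage and bone markers were also all above control in Kir2.1 mice (median 0.503, 3 at an unadjusted p under 0.05). So were the 5 endothelium and mural cell markers (median 0.409, 1 at that threshold). In the lists whose sums did not overlap, the 6 macrophage and blood markers (median 0.561, 3) and the 3 tested muscle markers (median 0.195, 0) were all above control. Higher at that threshold in Kir2.1 mice were 4.93% of all tested genes. After PEA the sum of the 4 basal cell markers was the one that did not overlap (989 to 1162 in exposed mice, 739 to 908 in controls). Among them the log2 difference was 0.63 for Krt5, while the mean of Trp63 was 321 in controls and 320 in exposed mice. Of the 7 fibroblast, cartilage and bone markers 6 were below control after PEA, with 3 at an unadjusted p under 0.05, where 6.04% of all tested genes were lower. At that threshold 2 of the 6 tested olfactory ensheathing glia markers were also lower. Of the markers on these lists, limma called Omp alone, which was lower in Kir2.1 mice. The mean log2 level of vomeronasal receptor genes stood apart in Kir2.1 control 1 (6.06, against 2.35 to 2.45 in the other 5 mice). It ranged from 1.38 to 5.77 in PEA controls and from 1.38 to 5.33 in exposed mice, with 1 of 4 controls and 3 of 4 exposed mice under 3.

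Per length, Clstn1 was the most abundant member and Cntn4 the most abundant contactin in every group. In Kir2.1 controls the normalized count per kb of exon was 11369 ± 648 for Clstn1, 1690 ± 8.65 for Cntn4 and 1289 ± 115 for Clstn2 (mean ± SD, n = 3). Clstn3 (251 ± 40.4), Cntn2 (109 ± 15.6) and Cntn1 (92.1 ± 2.64) followed, and Cntn3 (3.47 ± 0.742), Cntn6 (0.644 ± 0.652) and Cntn5 (0.561 ± 0.418) came last. The ranges of Cntn6 and Cntn5 overlapped, and those of the other neighbours in this order did not. In PEA controls, which were normalized in a table of their own, the order began with Clstn1 (881 ± 114, n = 4), Cntn4 (735 ± 53.6) and Clstn2 (239 ± 55.9), and the ranges of Clstn1 and Cntn4 overlapped (777 to 999 and 670 to 782). Cntn1 (47.5 ± 3.72), Clstn3 (29.2 ± 6.45) and Cntn2 (14.1 ± 5.83) came next. Cntn3 (3.33 ± 1.48) and Cntn5 (1.86 ± 0.623) overlapped, and Cntn6 (0.569 ± 0.222) was the lowest.

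**Figure D1:**
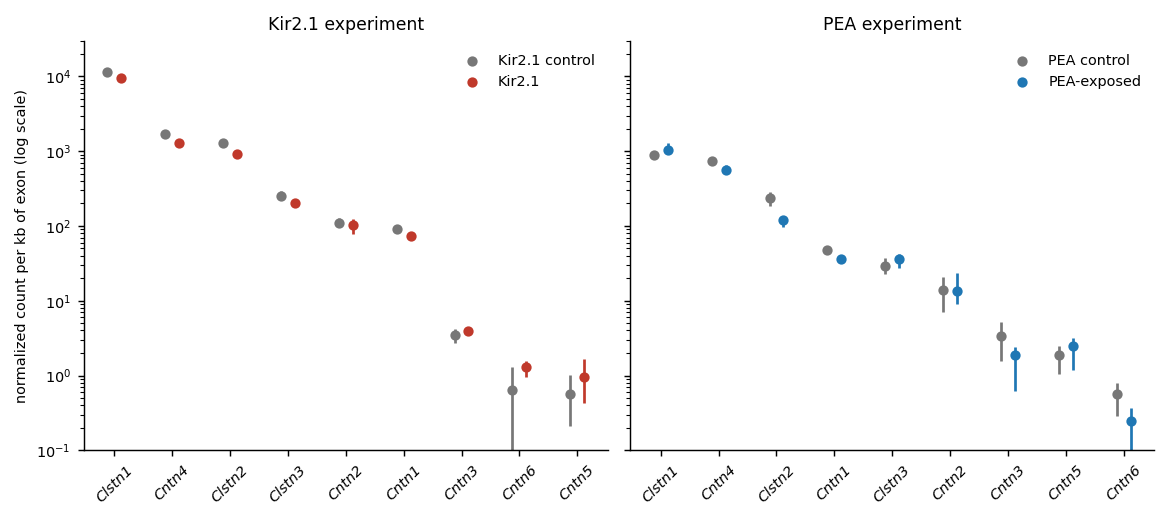
Normalized count per kb of exon (log axis) for the 9 genes, ordered by the control mean within each experiment. Points are group means and lines run from the lowest to the highest mouse, with a line that reaches 0 cut at the lower edge; Clstn1, Cntn4 and Clstn2 lead in all 4 groups, and Cntn3, Cntn5 and Cntn6 are lowest in every group.

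Cntn4 made up 89.2% ± 0.854 of contactin RNA per length in Kir2.1 controls and 87.6% ± 1.90 in Kir2.1 mice (mean ± SD, n = 3), and 91.6% ± 1.16 and 91.1% ± 1.3 in PEA control and exposed mice (n = 4). These shares overlapped between the groups of each experiment. Clstn2 was 9.97% ± 0.328 of calsyntenin RNA per length in Kir2.1 controls and 8.62% ± 0.297 in Kir2.1 mice. Its share was 20.6% ± 1.84 in PEA controls and 10.1% ± 0.827 in exposed mice, with a lowest control of 18.4% and a highest exposed mouse of 10.8%. The Clstn2 share did not overlap between the groups in either experiment, and it uses the same Clstn2 values that the gene was picked for.

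Cntn4 measured 14395, 14257 and 14368 normalized counts in the 3 Kir2.1 controls and 9908.5, 11197 and 11919 in the 3 Kir2.1 mice. The controls lay close together and every Kir2.1 mouse was below all of them. The difference was -0.39 on the log2(value + 1) scale (limma SE 0.08), or 23.5% lower. Among the 8 PEA mice, Cntn4 measured 5688, 6579, 6038 and 6640 in controls and 5535, 4807, 4503 and 4248 in exposed mice. Exposed mouse 1 was the highest of its group and lay close under the lowest control, and the other 3 were well below. The log2 difference was -0.39 (SE 0.11), or 23.7% lower.

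Cntn1, also called F3, is part of the axonal complex beside nodes of Ranvier, and its differences were the nearest of the paralogs to those of Cntn4. It measured 892.5, 870 and 843 in Kir2.1 controls and 611, 671 and 780 in Kir2.1 mice. PEA values of Cntn1 were 478, 469, 446 and 400 in controls and 365, 361, 349 and 310 in exposed mice. Kir2.1 and exposed mice were all below their controls, as for Cntn4. The log2 difference was -0.34 (SE 0.11) in Kir2.1 mice, with a limma adjusted p = 0.295 (Benjamini-Hochberg over all tested genes), and the 95% confidence interval ran from -0.59 to -0.09. In exposed mice it was -0.37 (SE 0.11), with a limma adjusted p = 0.161, and the interval ran from -0.61 to -0.13. Cntn1 therefore passed the unadjusted threshold in both experiments and the adjusted threshold in neither.

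**Figure D2:**
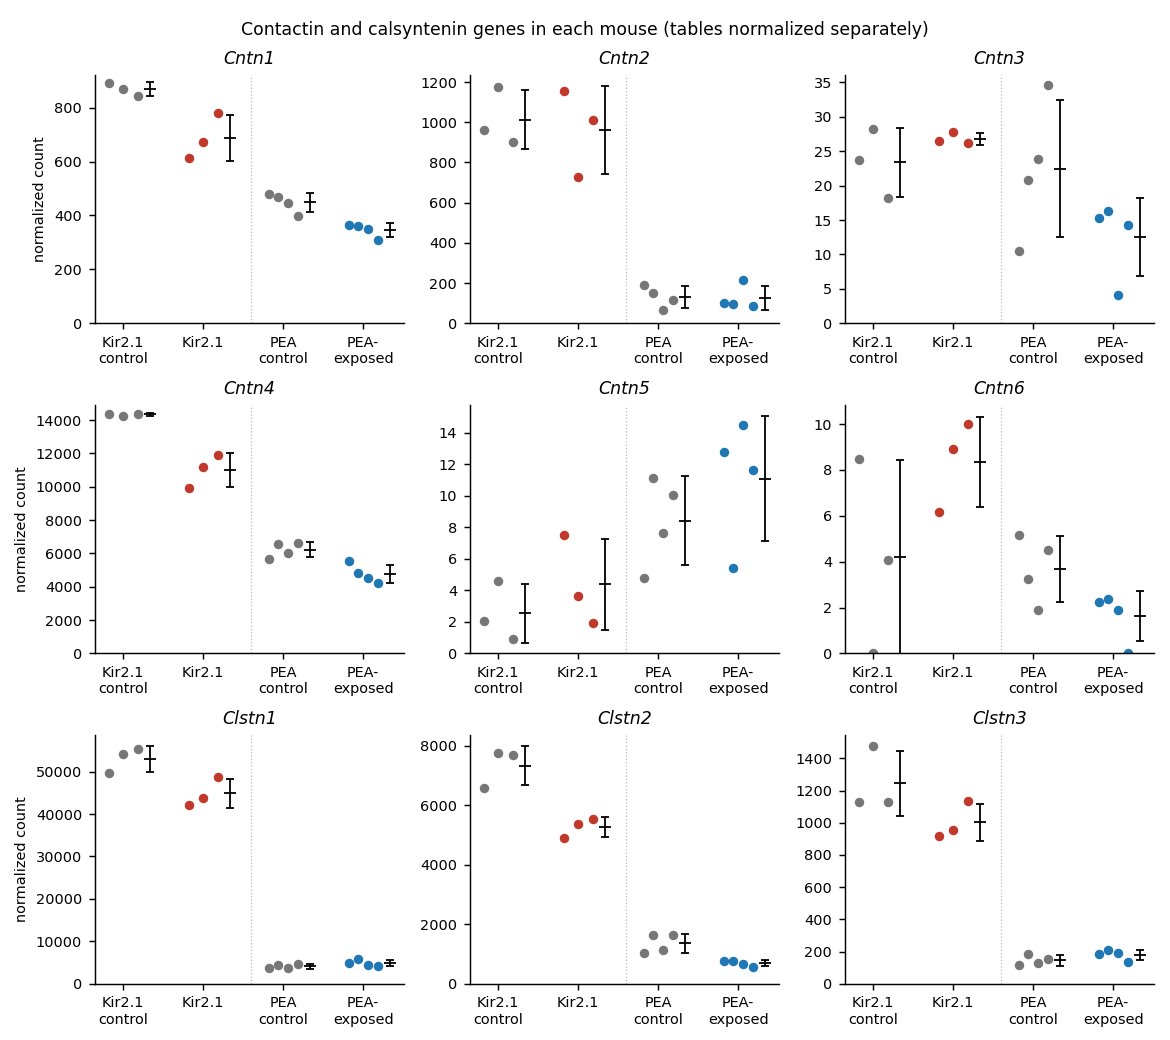
Normalized count of each gene (linear axis from 0) in each mouse, with mean and SD beside the points; an SD bar that would pass below 0 is cut there, and levels on the left and right of the dotted line come from tables normalized separately. Points of Cntn4, Clstn2 and Cntn1 do not overlap between the groups of either experiment.

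The ratio of Cntn4 to Cntn1 counts within a mouse was 16.1, 16.4 and 17 in Kir2.1 controls and 16.2, 16.7 and 15.3 in Kir2.1 mice. The PEA ratios were 11.9, 14, 13.5 and 16.6 in controls and 15.2, 13.3, 12.9 and 13.7 in exposed mice. The ratios overlapped in both experiments.

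Cntn2, known as TAG-1 and found on early-growing axons, varied widely between mice of a group. It measured 961, 1178 and 902 in Kir2.1 controls and 1154, 725 and 1010 in Kir2.1 mice, with a log2 difference of -0.09 and a 95% interval from -0.525 to 0.344 (limma adjusted p = 0.918). Its PEA values were 193, 152, 65.1 and 115 in controls and 102.5, 97.0, 215.5 and 85.2 in exposed mice, with a difference of -0.07 and an interval from -0.872 to 0.738 (limma adjusted p = 0.952). Groups overlapped in both, and the sign turned when some single mice were left out. Cntn3, a contactin of some neuron populations, was low, at 18.2 to 28.2 in the Kir2.1 table and 4.16 to 34.6 in the PEA table, and groups overlapped. Its log2 differences were 0.21 (interval -0.452 to 0.875, limma adjusted p = 0.858) and -0.83 (interval -1.90 to 0.247, limma adjusted p = 0.455). They were 0.052 without Kir2.1 control 3, 0.353 without Kir2.1 control 2 and -0.41 without exposed mouse 3.

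Cntn5 and Cntn6, known for the auditory pathway and the cerebellum respectively, had means under 10 in both tables and were not tested. Cntn5 lay between 0.942 and 7.54 in the Kir2.1 table and between 4.78 and 14.5 in the PEA table. Cntn6 lay between 0 and 9.98 in the Kir2.1 table, with control 2 listed at 0, and between 0 and 5.15 in the PEA table, with exposed mouse 4 listed at 0. The groups of both genes overlapped in both experiments, and whether a change of the size seen for Cntn4 could be detected at these levels was not tested.

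Clstn2, a calsyntenin of postsynaptic membranes, measured 6577, 7739 and 7688 in Kir2.1 controls and 4900, 5369 and 5546 in Kir2.1 mice. All Kir2.1 mice were below all controls, with a log2 difference of -0.47 (limma SE 0.09), or 28% lower. In the PEA experiment it measured 1042, 1641.5, 1127 and 1623 in controls and 752.5, 769, 675 and 551 in exposed mice. Controls 2 and 4 were high and controls 1 and 3 lower, and all 4 exposed mice were below them, with a log2 difference of -0.96 (SE 0.17), or 48.7% lower. The experiments used different library types and were normalized apart. No test is given of whether the Clstn2 difference was larger after PEA, because the gene was chosen on these contrasts.

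Clstn1, or alcadein-alpha, the kinesin-1 adaptor of axonal transport, measured 49593, 54084 and 55334 in Kir2.1 controls and 42044, 43875 and 48731 in Kir2.1 mice. Every Kir2.1 mouse was below every control, yet the highest Kir2.1 mouse and the lowest control lay close. The log2 difference was -0.24 (SE 0.09), with a limma adjusted p = 0.366 and a 95% interval from -0.45 to -0.04. In the PEA experiment Clstn1 measured 3677, 4466, 3622 and 4657 in controls and 4967, 5920, 4371 and 4250 in exposed mice. Here the groups overlapped and the difference had the other sign, 0.24 (SE 0.13, limma adjusted p = 0.418, interval -0.0491 to 0.54). It was 0.147 without exposed mouse 2, and 0.041 between the PEA libraries of low vomeronasal receptor level.

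Clstn3, which promotes synapse formation through neurexins, measured 1132, 1478 and 1128 in Kir2.1 controls and 919, 956 and 1135 in Kir2.1 mice. It measured 114, 187, 128 and 151 in PEA controls and 184, 207, 191 and 137 in exposed mice. Groups overlapped in both experiments, with log2 differences of -0.31 (SE 0.14, limma adjusted p = 0.473, interval -0.627 to 0.0131) and 0.32 (SE 0.19, limma adjusted p = 0.459, interval -0.10 to 0.735). They were -0.18 without Kir2.1 control 2 and 0.21 without PEA control 1. Clstn1 and Clstn3 lay on the same side of 0 as Clstn2 in Kir2.1 mice and on the other side in exposed mice, and neither passed the adjusted threshold.

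Within each mouse, the ratio of Clstn1 to Clstn2 counts was 7.54, 6.99 and 7.20 in Kir2.1 controls and 8.58, 8.17 and 8.79 in Kir2.1 mice. It was 3.53, 2.72, 3.21 and 2.87 in PEA controls and 6.60, 7.70, 6.47 and 7.71 in exposed mice. The ratio did not overlap between groups in either experiment, and it also rests on the Clstn2 values the gene was picked for. The ratio of Clstn1 to Clstn3, by contrast, overlapped in both, at 36.6 to 49.1 over the 6 mice of the Kir2.1 table and 22.9 to 32.4 over the 8 mice of the PEA table.

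**Figure D3:**
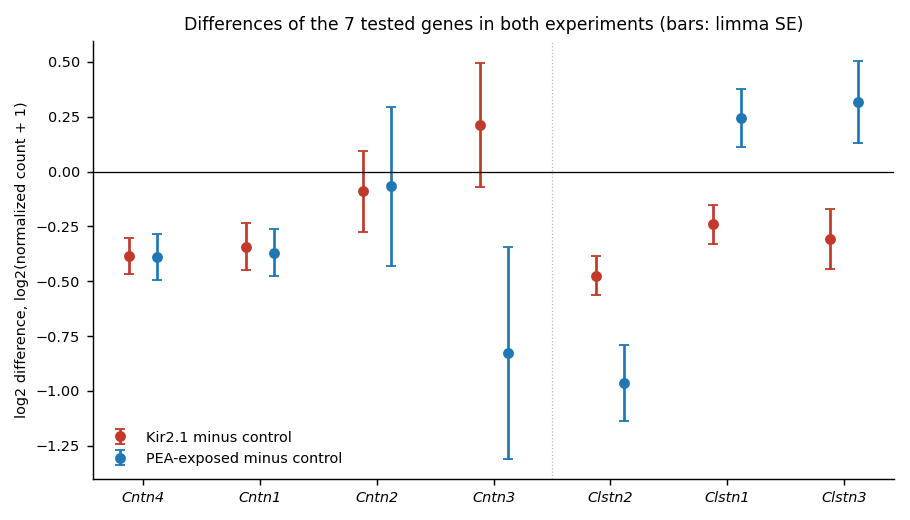
Log2 difference from control on the log2(normalized count + 1) scale for the 7 genes that passed the filter, with bars of 1 limma standard error, contactins left of the dotted line and calsyntenins right of it. Cntn4 and Cntn1 lie between -0.34 and -0.39 in both experiments, and Clstn1 and Clstn3 are below 0 in Kir2.1 mice and above 0 in PEA-exposed mice.

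Of the 9 genes, 7 passed the filter of a mean of 10 in each table, and none of the 5 tested paralogs was called by limma at adjusted p under 0.05 in the Kir2.1 experiment (0.353% of all 19807 tested genes were called) or in the PEA experiment (0.179% of 17322). At an unadjusted p under 0.05, limma marked 2 of the 5 in Kir2.1 mice, Cntn1 and Clstn1 (11.1% of all genes), and 1 of the 5 in exposed mice, Cntn1 (15% of all genes). Groups that did not overlap, with the treated mice lower, were found for 4 of the 9 genes in the Kir2.1 experiment and 3 of the 9 in the PEA experiment. The background shares of such genes were 9.04% and 3.86%, and none of the 9 was higher without overlap, as 7.26% and 5.46% of all genes were. Of the genes that were lower, 2 in each experiment were picked for being so. The median log2 difference of the 5 tested paralogs was -0.24 in Kir2.1 mice and -0.07 in exposed mice, beside 0.01 and -0.02 over all tested genes. With scaling to mature neuron markers, which moved the median of all genes to 0.446 in the Kir2.1 experiment, the Kir2.1 differences of Cntn1, Cntn2, Clstn1 and Clstn3 were all positive, between 0.10 and 0.35.

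Whether a paralog differed between the experiments was tested in a limma fit of all 14 mice, as the Kir2.1 difference minus the PEA difference. Clstn1 gave -0.49 (SE 0.18, 95% interval -0.869 to -0.103) and Clstn3 -0.62 (SE 0.26, interval -1.18 to -0.0713), and both passed an unadjusted p of 0.05, as 13.2% of all genes did. With Benjamini-Hochberg adjustment over 16705 genes, limma left them at adjusted p = 0.26 and 0.315. Cntn1 gave 0.03 with an interval from -0.295 to 0.349 (limma adjusted p = 0.96), Cntn2 -0.02 with an interval from -1.08 to 1.04 (limma adjusted p = 0.992) and Cntn3 1.04 with an interval from -0.323 to 2.40 (limma adjusted p = 0.508). In this contrast 0.443% of all genes were called, and none of the 5 paralogs was.

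Mature neuron markers were lower in Kir2.1 mice, the same direction as Cntn4 and Clstn2. All 10 markers were below control in the Kir2.1 mice, each at an unadjusted p under 0.05 (limma), where 6.2% of all genes were lower. After adjustment limma called Omp alone. The mean log2 difference of the 10 was -0.44, beside -0.03 for 8 markers of immature neurons. The call of Omp (-0.60, limma adjusted p = 0.0466) was lost with each of the 6 mice left out (limma adjusted p = 0.0716 to 0.182), with a pseudocount of 5 (0.0531), no filter (0.0525), no trend (0.148), scaling to the marker list that holds it (0.0858), the replicate block (0.0799) and the vomeronasal covariate (0.146). Measured against the mature markers of the same mouse, Cntn4 differed by 0.05 and Clstn2 by -0.03 between Kir2.1 and control mice, and the groups overlapped. Against the immature markers, Cntn4 differed by -0.36 and Clstn2 by -0.44, with no overlap. These values come from the contrast the genes were picked on. On this scale Cntn1 (-0.31), Clstn3 (-0.28) and Clstn1 (-0.21) were also lower with no overlap, while Cntn2, Cntn3, Cntn5 and Cntn6 overlapped. Relative to mature markers Cntn1 differed by 0.10 with overlap, whereas Clstn1 was higher in every Kir2.1 mouse, by 0.20. The median of all 19807 tested genes on this scale was 0.446, above the value of Clstn1, and limma called 10479 of them higher.

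Between exposed and PEA control mice the mature marker mean differed by -0.08 and the immature marker mean by -0.01. The mature markers did not move as one, and 6 of the 10 were below control. Omp differed by 0.31 (limma adjusted p = 0.252), Gnal by -0.37 and Gfy by -0.49. Relative to the mature markers, Cntn4 differed by -0.31 and Clstn2 by -0.88, with no overlap between the groups. The log2 level of Clstn2 relative to these markers was -0.75, -0.37, -0.69 and -0.43 in the 4 controls and -1.29, -1.51, -1.37 and -1.62 in the exposed mice. Both genes were picked for being lower in this experiment, so these values are a description. Without scaling, 3.86% of all genes were lower with no overlap. Clstn1 was higher in every exposed mouse on this scale, by 0.325 (0.257 relative to immature markers). The median of all genes on the mature scale was 0.06 in this experiment. The Kir2.1 differences of Cntn4 and Clstn2 (-0.39 and -0.47) lay close to that of the mature markers (-0.44), and those of Cntn1 and Clstn3 were -0.34 and -0.31. The PEA differences of Cntn4 and Clstn2 did not lie close to that of the mature markers. The part of marker level in either experiment was not tested.

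**Figure D4:**
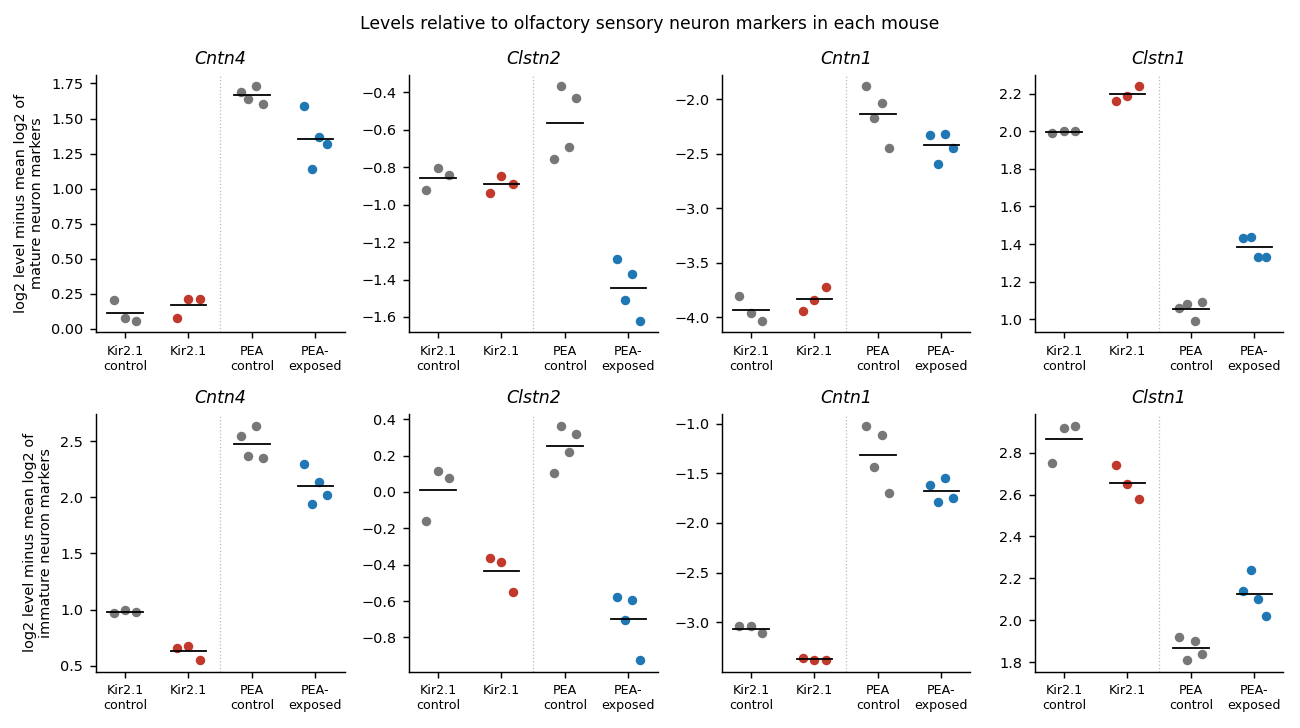
Log2 level of 4 genes minus the mean log2 level of 10 mature (top) or 8 immature (bottom) olfactory sensory neuron markers in each mouse; bars are group means, and the axes are linear and do not start at 0. Cntn4 and Clstn2 overlap between Kir2.1 and control mice in the top row, and do not overlap between PEA-exposed and control mice in either row.

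Vomeronasal receptor level differed between libraries of a group. Without Kir2.1 control 1, whose level stood apart, the Kir2.1 difference was -0.38 for Cntn4 and -0.55 for Clstn2. With the receptor level as a covariate the PEA difference was -0.36 for Cntn4 and -1 for Clstn2. Between the single PEA control and the 3 exposed mice whose receptor level was under 3, the difference was -0.56 for Cntn4 and -1.3 for Clstn2. These values come from the contrasts the genes were picked on and are a description. In that last setting Clstn1 differed by 0.041, Cntn1 by -0.235, Cntn3 by -1.68 and Clstn3 by 0.221. Macrophage and blood, muscle, fibroblast, endothelium and basal cell markers were not entered as covariates, and their part in the results was not tested.

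Genes known to bind contactins or to work with them form a list of 20, of which 18 were tested in each experiment, and Cntnap3 and Cntnap5c were too low. None of the 18 was called in either experiment (limma, adjusted p under 0.05). At an unadjusted p under 0.05, 4 were lower in Kir2.1 mice and 0 higher, where 6.2% and 4.93% of all genes were, and 1 was lower and 1 higher in exposed mice, where 6.04% and 8.93% were. The list median was -0.17 in Kir2.1 mice and -0.02 in exposed mice, and scaling to mature neuron markers gave 0.27 and 0.06, where the median of all genes was 0.446 and 0.06.

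The amyloid-precursor-like genes, whose products bind contactins on the cell surface, had the smallest p-values of the list in Kir2.1 mice. Aplp1 measured 30457, 30858 and 32876 in controls and 21447, 21564 and 25864 in Kir2.1 mice, with a log2 difference of -0.46 (SE 0.09, limma adjusted p = 0.133). Aplp2 differed by -0.22 (limma adjusted p = 0.338) and Ptprg, a receptor phosphatase that contactins bind, by -0.27 (limma adjusted p = 0.357). In exposed mice the smallest p-values belonged to Ptprz1, a related phosphatase (-0.35, limma adjusted p = 0.312), to Tnr, which encodes the matrix protein tenascin-R (1.13, limma adjusted p = 0.325), and to Nrcam, an axonal adhesion molecule (-0.31, limma adjusted p = 0.394, and -0.14 without exposed mouse 4). None of these 6 genes passed the adjusted threshold.

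The list of calsyntenin partners holds 23 genes, all tested in both experiments, namely kinesin-1 subunits, the X11 adaptor family, neurexins, App, which the contactin list also holds, and the proteases that cut calsyntenins. Of these, 1 was called lower in Kir2.1 mice (0.278% of all genes were) and 0 higher (0.0757% were), and in exposed mice 0 were called lower (0.0346%) or higher (0.144%) (limma, adjusted p under 0.05). Apba1, which encodes X11-alpha, an adaptor that binds both calsyntenins and App, fell from 3658, 3650 and 3960 in controls to 2333, 1964 and 2268 in Kir2.1 mice. The log2 difference was -0.78 (SE 0.09, limma adjusted p = 0.0223), and no Kir2.1 mouse overlapped with a control. Its direction was kept with each mouse left out (-0.83 to -0.71), and the call was lost with any of the 6 mice left out. The call was also lost with no trend (limma adjusted p = 0.119), the replicate block (0.0802) and the vomeronasal covariate (0.0886). It was kept with the Xist covariate (limma adjusted p = 0.0378) and with scaling to mature neuron markers (-0.34, limma adjusted p = 0.0193). In exposed mice Apba1 differed by -0.08 (SE 0.17), with values of 271, 422, 311 and 397 in controls and 334, 378, 348 and 257 in exposed mice. Apba1 was among the genes of the fit between the experiments, but its result in that contrast is not given here, so no difference between them is claimed.

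Kinesin-1 genes had the next smallest p-values in Kir2.1 mice. Klc2, a kinesin light chain, differed by -0.29 (limma adjusted p = 0.222) and Kif5a, a neuronal kinesin heavy chain, by -0.30 (limma adjusted p = 0.30). In exposed mice the smallest p of the list belonged to Psen2, a catalytic subunit of gamma-secretase, which measured 287, 337, 333 and 491 in controls and 610, 794, 565 and 482 in exposed mice. Exposed mice 1 to 3 were above every control, and exposed mouse 4 was not. The log2 difference was 0.76 (SE 0.19, limma adjusted p = 0.131). Klc3 differed by 0.61 (limma adjusted p = 0.237) and Kif5b by -0.255 (limma adjusted p = 0.243), the latter with no overlap. At an unadjusted p under 0.05, 4 of the 23 were lower and 0 higher in Kir2.1 mice, and 1 was lower and 4 higher in exposed mice. The same shares of all genes as for the contactin partners apply, 6.2% and 4.93% in Kir2.1 mice and 6.04% and 8.93% in exposed mice. The list median was -0.15 in Kir2.1 mice, or 0.29 when scaled to mature neuron markers (0.446 for all genes on that scale), and 0.09 in exposed mice.

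**Figure D5:**
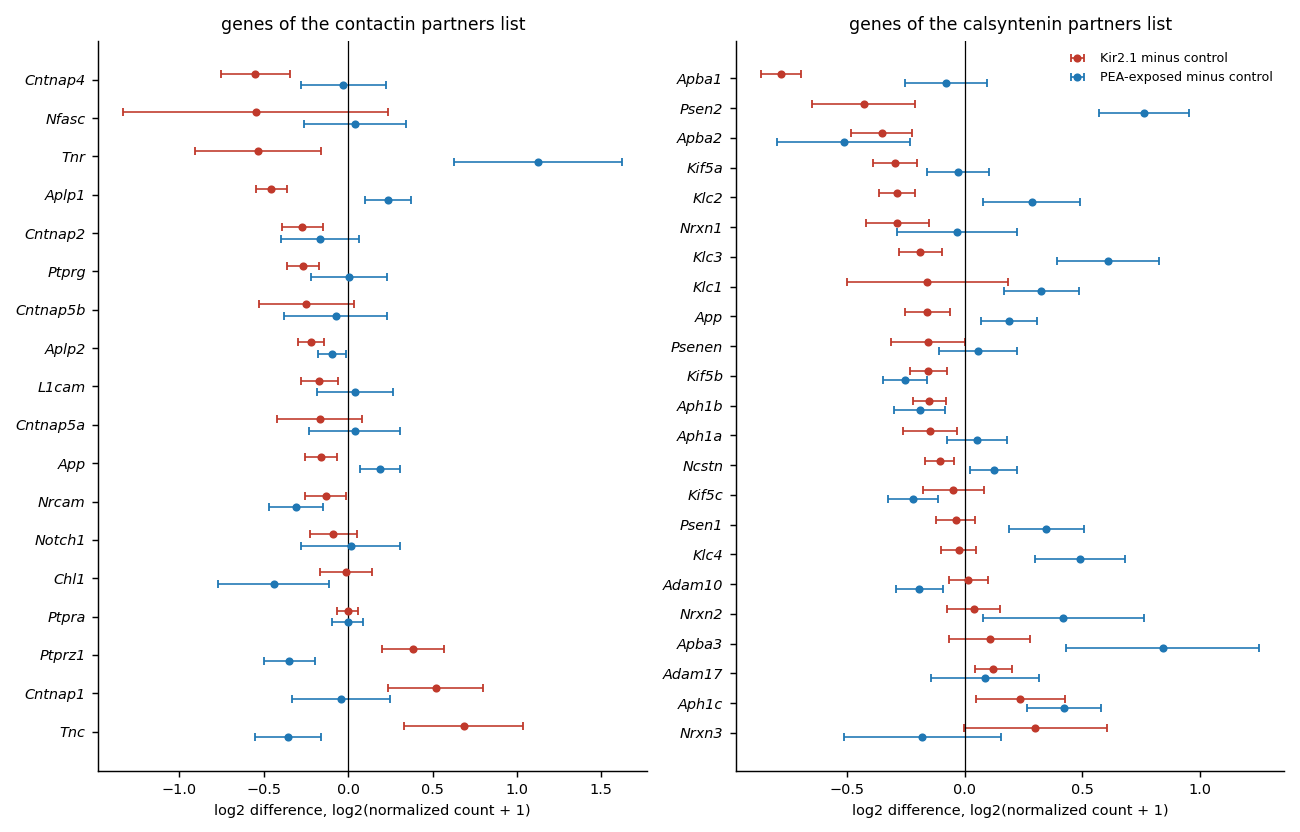
Log2 difference from control of the 18 tested contactin partners (left) and the 23 calsyntenin partners (right) on the log2(normalized count + 1) scale, with bars of 1 limma standard error, ordered by the Kir2.1 difference. Apba1, at -0.78 in Kir2.1 mice, is the only gene of either list called at adjusted p under 0.05.

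Deviations of each mouse from its group mean show which genes varied together within the 4 groups, over 14 mice and 16705 genes. The mice share library preparation and differ in tissue composition within an experiment, so these correlations are descriptions. Cntn4 and Clstn2 deviated together (Pearson r = 0.746), and the values of Clstn2 with Clstn1 (r = 0.862) and Clstn3 (r = 0.849) were somewhat higher. Cntn4 had r = 0.656 with Clstn1 and r = 0.606 with Clstn3. No share of all genes with such values is given, so none of these pairs is shown to be unusual. Cntn1, whose group differences were nearest to those of Cntn4, had r = 0.455 with it. The 4 genes most like Cntn4 were Cdh2 (r = 0.958), Syt9 (r = 0.943), Araf (r = 0.935) and Lingo2 (r = 0.916). The 5 most like Clstn2 were Myo5a (r = 0.971), Astn2 (r = 0.967), Cyfip2 (r = 0.966), Ncam1 (r = 0.964) and Per2 (r = 0.963). Cdh2 and Ncam1 encode adhesion molecules of neurons, N-cadherin and NCAM, and Myo5a an actin-based motor. Leaving out the 2 mice farthest from the median of Cntn4 or of Clstn2 left r between 0.875 and 0.97 for these 9 genes. They were picked for the highest r over these same mice, so the choice favours high values and this is no independent check. Within the experiments r differed, for Cyfip2 0.716 in the 6 mice of the Kir2.1 table and 0.991 in the 8 of the PEA table, for Per2 0.721 and 0.985 and for Araf 0.79 and 0.978, and the other 6 genes lay between 0.867 and 0.983.

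No 31-base stretch of a Cntn4 transcript occurred in a transcript of another gene in GENCODE vM21, 0.531% of those of Clstn2 did, and the highest share among the 9 genes was 5.22% in Cntn5. At most 14 stretches of any member occurred in another member. Clstn2 overlaps 4921534H16Rik on the opposite strand, and the Kir2.1 libraries did not keep strand. That gene had a mean of 27.9 normalized counts in the Kir2.1 table and 12.7 in the PEA table, far under Clstn2.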

How the data were processed

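RNA was measured in the olfactory epithelia of 14 mice in 2 experiments. The submitters' processing notes name Salmon 1.3.0 and DESeq2 1.30.0. Per the methods, the Kir2.1 library kit selected poly-A RNA without keeping strand and was sequenced single-end at 40 bases, the PEA kit removed ribosomal RNA, kept strand and was sequenced at 150 bases, and Salmon used a reverse-stranded setting and Ensembl release 100 (GRCm38). The deposited values are a signal, gene-level estimates that the authors divided by DESeq2 size factors, and are called normalized counts here. Whole reads could not be recovered: only 25.8% to 32.5% and 7.59% to 11.1% of values under 20 were whole multiples (within 0.01) of the most frequent low value. No count test was run.

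Genes with a mean of at least 10 in a table were tested with limma 3.58.1 in R 4.3.3 on log2(value + 1), which understates changes of low genes, with its trend option for the variance, adjustment by Benjamini and Hochberg and a threshold of 0.05, each experiment alone. Contrasts between experiments used a fit of 4 groups. The script was tested on simulated data. Levels per kb used merged exons of GENCODE vM21. The labels name no litters, so p-values measure the spread between these mice. Per the methods, the Kir2.1 controls were littermates, and odor was given by a vial placed in the home cage of mother and pups. Exposed pups may thus share a cage or litter, and the p-values do not account for that.

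Named were all members, in each partner list the called genes and, where fewer than 3, the 3 with the smallest p, the 5 genes most like each of Cntn4 and Clstn2 (1 of which is not reported here), Kcnj2 and Omp, and markers. The members and lists were chosen with earlier results of these data known. Alternatives were no filter, a minimum mean of 50, pseudocounts of 0.5 and 5, no trend, median centring, scaling to mature neuron markers, the replicate block, vomeronasal and Xist covariates, leaving out each mouse and other gene lengths. The comparison of libraries with low vomeronasal receptor levels was added after seeing the data. Protein sequences were not used here.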

Additional observations from a re-analysis of the deposited data

Results flagged for a closer look

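Among 18 sets of 4 mice (9 genes in PEA controls and in exposed mice), 1 held a mouse far from the others. Cntn2 in exposed mouse 3 measured 215.5 normalized counts against 85.2 to 102.5 in the other 3, and the gap to the nearest was 0.867 of the whole range of the group. Chance flags about 1 in 20 such sets. The Kir2.1 groups of 3 mice were too small for this check.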

How the results depend on the processing

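The alternatives kept the direction of Clstn2 in both experiments and of Cntn4 in the PEA experiment. Scaling to mature neuron markers, which shifts every gene of the Kir2.1 experiment, gave Kir2.1 differences of 0.054 for Cntn4, -0.034 for Clstn2, 0.10 for Cntn1, 0.35 for Cntn2, 0.20 for Clstn1 (adjusted p = 0.0306 by limma), 0.13 for Clstn3, 0.22 for Aplp2, 0.17 for Ptprg, 0.15 for Klc2 and 0.14 for Kif5a, and 0.013 for Cntn2 in the PEA experiment. It called 10571 genes (92 lower, 10479 higher, against 55 and 15 without it), 1 paralog, 8 contactin partners and 14 calsyntenin partners in the Kir2.1 experiment, and 51 genes in the PEA experiment. Beside 70 genes called in Kir2.1 mice, 20 were called with no trend, 9 with the replicate block, 22 with the vomeronasal covariate and 44 with the Xist covariate, and between 16 and 44 with a mouse left out (16 without control 1). In these fits except the Xist covariate the calsyntenin partners called came to 0, and the cause was not tested. Beside 31 genes called in exposed mice, 52 were called with no filter, 23 with the replicate block, 20 with the vomeronasal covariate and between 19 and 41 with a mouse left out (19 without exposed mouse 2 or exposed mouse 3, 20 without exposed mouse 4). The difference of Cntn2 turned to 0.14 with the Xist covariate and 0.071 in PEA libraries of low vomeronasal level, and ranged from -0.23 to 0.10 in Kir2.1 mice and from -0.37 to 0.15 in exposed mice with a mouse left out. With a mouse left out, Cntn4 ranged from -0.45 to -0.31 and from -0.46 to -0.34, and Clstn2 from -0.55 to -0.42 and from -1.08 to -0.86. Low vomeronasal libraries alone gave -0.56 for Cntn4 and -1.30 for Clstn2 in the PEA experiment, from 1 control, and moved Clstn1 to 0.041, Cntn1 to -0.235 and Cntn3 to -1.68. The share of Clstn2 among calsyntenins by the longest transcript was 12.1% in Kir2.1 controls, 10.5% in Kir2.1 mice, 24.3% in PEA controls and 12.2% in exposed mice, and by coding length 12%, 10.4%, 24.2% and 12.1%, and that of Cntn4 in Kir2.1 controls was 90.2% and 88.3%. Replicate numbers are shared between groups (PEA control 4 carries library number 5), the labels do not tie same-numbered mice to one litter and their deviations correlated between -0.058 and 0.16, so the replicate block is shown only as a check, and Cntn4 and Clstn2 have the same differences with it. Depth is not known, which limits what can be said of Cntn3, Cntn5 and Cntn6.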
